A study of Mus musculus with 2 samples.

Results

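The alpha and beta tubulin isotypes were 10 genes of 34624 measured loci: 3 alpha tubulins (Tuba1a, Tuba1b and Tuba1c) and 7 beta tubulins (Tubb2a, Tubb2b, Tubb3, Tubb4a, Tubb4b, Tubb5 and Tubb6). They were chosen by name, and their loci were found by Ensembl gene identifier. All 10 had a locus of their own that was joined with no other gene. The samples were 2 replicates of total RNA of entire mouse embryos, untreated and collected 10.5 days post coitum from crosses of CBA/Ca with C57Bl/10 mice. At this stage the neural tube is producing neurons and much of the embryo is proliferating. The series holds 1 group, so the comparisons below are between genes and between the 2 libraries. The sources used here do not state the number of embryos in each replicate, and the spread between replicates may be technical.

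Microtubules are hollow polymers of alpha-beta tubulin heterodimers. They form the mitotic spindle, the axon shaft and the core of cilia. Mammals encode several isotypes of each subunit that can copolymerise, and these differ most at their acidic C-terminal tails, where polyglutamylation and other modifications are added and where motors and other microtubule-binding proteins make contact. Tuba1a, Tubb2b and Tubb3 are known as isotypes of developing neurons, and mutations of their human counterparts cause malformations of the cerebral cortex. Tubb5, Tuba1b, Tuba1c and Tubb4b are broadly expressed. Tubb4a is a brain isotype that rises late, in neurons and myelinating oligodendrocytes.

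The coding ends are shown because they hold the stretch in which the beta isotypes differ most, and because they show how close Tubb2a and Tubb2b are. Each line gives the last 60 bases of the coding sequence, stop codon included, 5′ to 3′ on the coding strand. All lie in exon 4 of 4 of the transcript. Sequences and positions are from GENCODE M21 on GRCm38, a later build than the mm9 of the deposited values. Capitals mark the bases at which Tubb2a and Tubb2b differ from each other, and the other genes are in lower case throughout.
Tuba1c (chr15:99037950-99038009, plus strand): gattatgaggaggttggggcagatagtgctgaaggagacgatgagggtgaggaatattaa
Tubb2a (chr13:34074468-34074527, minus strand): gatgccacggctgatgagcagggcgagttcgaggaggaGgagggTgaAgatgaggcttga
Tubb2b (chr13:34127471-34127530, minus strand): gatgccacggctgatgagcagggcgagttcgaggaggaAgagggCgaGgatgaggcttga
Tubb3 (chr8:123421623-123421682, plus strand): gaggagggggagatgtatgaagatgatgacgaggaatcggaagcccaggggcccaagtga
Tubb4a (chr17:57080690-57080749, minus strand): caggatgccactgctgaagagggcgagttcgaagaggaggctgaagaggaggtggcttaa
Tubb4b (chr2:25222308-25222367, minus strand): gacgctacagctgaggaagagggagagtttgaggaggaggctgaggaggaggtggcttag
Tubb5 (chr17:35834982-35835041, minus strand): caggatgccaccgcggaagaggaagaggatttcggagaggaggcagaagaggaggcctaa
Tubb2a and Tubb2b differed at 3 of these 60 bases. Over the whole coding sequence they were 96.5% identical, and the 3 pairs of alpha tubulins were 97.1% to 98.3% identical. In all 21 pairs of beta tubulins the last 60 bases were less alike than the rest, with a median identity of 60.3% against 84.1%. Identity here is the percent of alignment columns, gaps included. By this measure the endings of Tubb3 and Tubb2b had the lowest value among these pairs, at 42.7%, and the ranking depends on where gaps were placed.

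The start of the coding sequence is shown because the first residues of nascent tubulin are bound by Ttc5, which triggers decay of tubulin mRNA when free tubulin is in excess. The first 12 bases were ATGCGTGAGTGC in all 3 alpha tubulins. Among the beta tubulins, Tubb3 and Tubb4b both had ATGAGGGAGATC, Tubb5 had ATGAGGGAAATC, Tubb2a had ATGCGCGAGATC, Tubb2b had ATGCGAGAGATC and Tubb4a had ATGCGGGAAATC. The 9 genes shown thus had 6 different starts in bases, and that of Tubb6 is not shown. The differences among the beta tubulins shown were synonymous, as all of these starts encode Met-Arg-Glu-Ile. The alpha start encodes Met-Arg-Glu-Cys.

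Levels are in RPKM, the authors' reads scaled to transcript length and library size, which allows genes of different length to be compared. All 10 isotypes reached 1 RPKM in both replicates, as did 49.4% of all loci and 62.5% of single-gene protein-coding loci. The 10 had a median of 135 RPKM in replicate 1 and 172 in replicate 2, against 1.76 and 1.003 over all loci. Of the 10, 7 stood above 100 RPKM in both libraries. A mean of 100 RPKM or more was reached by 8 of them. Of 17070 single-gene protein-coding loci, 1289 reached that mean with 1 RPKM or more in both libraries. Together the 10 isotypes took 0.264% of all counted reads in replicate 1 and 0.390% in replicate 2, with 48272 and 458471 reads.

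Tubb5, the beta tubulin of most dividing cells, was the highest isotype in both libraries, at 831 RPKM in replicate 1 and 2390.0 in replicate 2. It ranked 69 and 74 among all loci. The 2 replicates differed 2.88-fold, far more than counting error, whose 95% exact Poisson intervals were 819 to 843 and 2380.0 to 2400.0 RPKM. Next to it in mean level among single-gene loci stood the adult alpha-type globin Hba-a2 (570.4 and 2694 RPKM), which, with an unnamed locus, was just above, and a pair of pseudogene loci, Gm9531 (1239 and 1972) and Gm11223 (1240.0 and 1930.1), just below.

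Tuba1a, the alpha tubulin of young neurons, was the highest alpha isotype, at 395 and 660.3 RPKM. Tuba1b, a broadly expressed alpha tubulin, stood at 245 and 423 RPKM. Tuba1c, the third, stood at 116 and 181. All 3 were higher in replicate 2, with the same order in both libraries. The single-gene loci nearest to Tuba1a in mean level were the histone genes Hist1h2af (471 and 592) and Hist1h4a (383 and 672), the pseudogene Gm8806 (456 and 599.6) and the topoisomerase gene Top2b (442 and 612).

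Tubb4b, a broad isotype that is also the main beta tubulin of motile cilia, gave the same level in both libraries, 283 and 283 RPKM. Tubb3, the class III isotype used as a marker of neurons, stood at 146 and 164 RPKM. Tubb2b, high in migrating neurons, stood at 123 and 146, and its neighbour on chromosome 13, Tubb2a, at 99.1 and 111. These 3 neural isotypes were close to each other and differed little between libraries.

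Tubb6, the class V isotype, was lower and was the one member that was higher in replicate 1 by more than counting error, at 58.1 RPKM against 29.4. Tubb4a was the lowest, at 4.46 and 5.58 RPKM from 98 and 697 reads. Its counting intervals, 3.62 to 5.43 and 5.17 to 6.01, overlapped, as did those of Tubb4b, while the other 8 genes differed between libraries by more than counting error. The share of all loci that differed by more than counting error was not measured, so this count cannot be called particular to tubulins. Tubb4a lay above 18.8% of the protein-coding loci that reached 1 RPKM in replicate 1 and above 24.9% of those in replicate 2, whereas Tubb5 lay above 99.8% and 99.9% and Tubb3 above 93.6% and 93.7%.

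**Figure D1:**
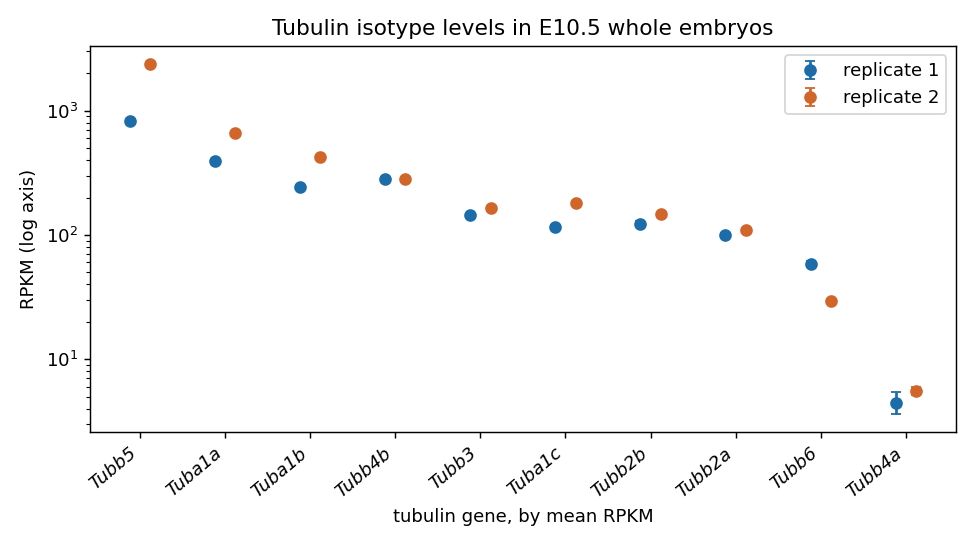
RPKM of each tubulin gene (log axis) in replicate 1 and replicate 2, ordered by mean level, with bars for the 95% Poisson interval of the count. Tubb5 stands above the others in both libraries (831 and 2390.0), most isotypes lie between 99.1 and 660.3, and Tubb4a is lowest (4.46 and 5.58).

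To ask which isotypes differed in level, all 45 pairs were compared as log2((RPKM + 1) ratio), a scale on which the added 1 shrinks the differences of weakly expressed genes. The replicate spread was the SD of the log2 ratio between libraries over the 200 single-gene protein-coding loci nearest in level. A pair was beyond it if its mean difference was over 2 SD and had 1 sign in the 2 libraries. With 2 replicates an exact test cannot give a two-sided p below 0.33, so no p is given. By this measure 36 of the 45 pairs lay beyond the spread and 9 within it. The share of pairs of other loci beyond the spread was not measured, so this count cannot be called particular to tubulins. Tubb5 differed from each of the 9 other genes. Tuba1a, Tuba1b and Tubb4b lay within the spread of each other, although Tuba1a over Tubb4b was beyond it in replicate 2 alone (log2 differences of 0.48 and 1.22, limit 0.96). Within it, too, were the pairs among Tubb3, Tuba1c, Tubb2b and Tubb2a. Tubb6 and Tubb4a each differed from all others.

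Among the alpha tubulins, Tuba1a and Tuba1b differed by 0.66 ± 0.03 (SD, n = 2), within the limit of 0.96. Tuba1a exceeded Tuba1c by 1.81 ± 0.08 and Tuba1b exceeded Tuba1c by 1.15 ± 0.11, both beyond their limits of 0.90 and 0.79. The second of these calls was lost when the spread was taken over loci of any type, as were those given below for Tubb4b over Tubb3 and Tubb5 over Tuba1a.

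Among the beta tubulins, the neuronal Tubb3 was below the ubiquitous Tubb5 by 3.18 ± 0.96 (log2 differences of -2.50 and -3.86 in the replicates) and above Tubb6 by 1.88 ± 0.801. Tubb3 over Tubb2b (0.20 ± 0.05) and Tubb2b over Tubb2a (0.36 ± 0.06) were both within the spread, with limits of 0.69 and 0.83, although the sign was the same in both libraries. Tubb5 exceeded Tubb4b by 2.31 ± 1.08 and Tubb2b by 3.38 ± 0.905. Of the class IV isotypes, Tubb4b exceeded Tubb4a by 5.57 ± 0.19. Tubb4b over Tubb3 (0.87 ± 0.12, limit 0.81) was beyond the spread in the mean but not in replicate 2 taken alone (0.78).

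Between the classes, the highest beta tubulin exceeded the highest alpha tubulin: Tubb5 over Tuba1a was 1.46 ± 0.56 against a limit of 1.104. In replicate 1 alone it was 1.07 and no longer beyond that limit. Of 9 pairs of neighbours in the order of levels, 3 changed sign between the libraries: Tuba1b and Tubb4b (-0.21 and 0.58), Tubb3 and Tuba1c (0.32 and -0.14), and Tuba1c and Tubb2b (-0.08 and 0.30). The order was the same in both libraries for 5 of the 10 genes.

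**Figure D2:**
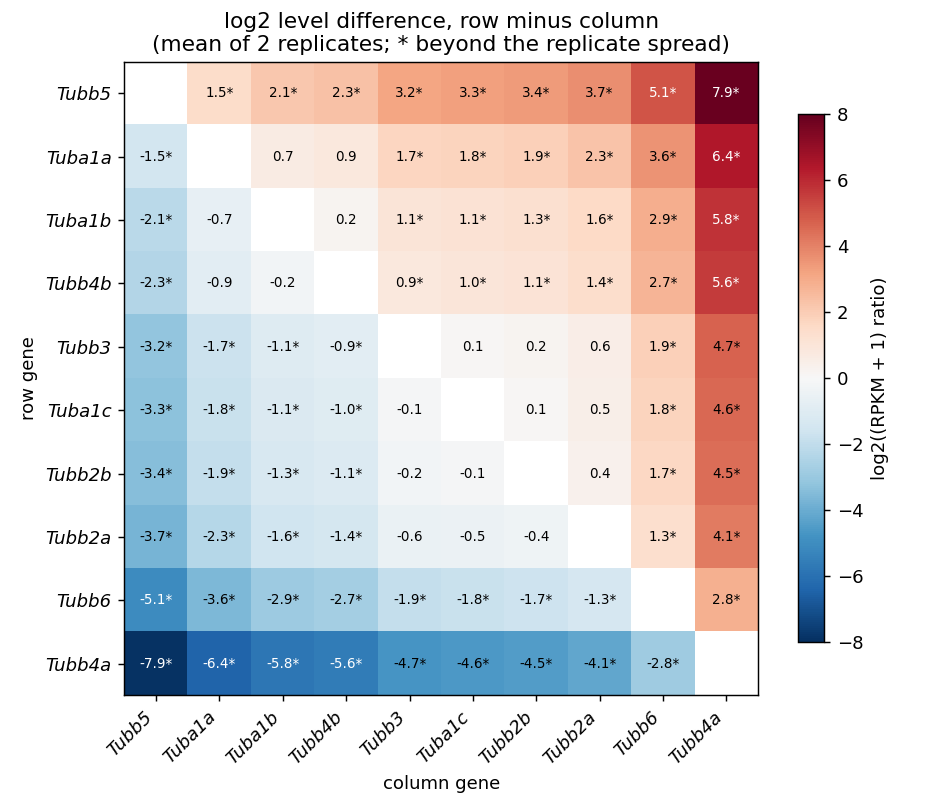
Mean log2 difference in level over 2 replicates for each pair of tubulin genes, row minus column, with an asterisk where the difference is beyond the replicate spread. The unmarked cells form 2 blocks, Tuba1a with Tuba1b and Tubb4b, and Tubb3 with Tuba1c, Tubb2b and Tubb2a.

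Isotype composition was described as each gene's share of the summed RPKM of its class. Tuba1a made up 52.2% of the alpha sum in both replicates, Tuba1b 32.4% and 33.5%, and Tuba1c 15.4% and 14.3%. The alpha composition was thus nearly the same in both libraries, although the sum was 757 RPKM in replicate 1 and 1264 in replicate 2. The beta composition differed more. Tubb5 made up 53.8% of the beta sum in replicate 1 and 76.4% in replicate 2. Tubb4b made up 18.3% and 9.04%, Tubb3 9.44% and 5.25%, and Tubb2b 7.99% and 4.68%. Tubb2a made up 6.42% and 3.53%, Tubb6 3.76% and 0.938%, and Tubb4a, the lowest, 0.289% and 0.178%. All 6 shares other than that of Tubb5 were lower in replicate 2, while in RPKM only Tubb6 and, slightly, Tubb4b were. Summed RPKM of the 7 beta tubulins was 2.04 times that of the 3 alpha tubulins in replicate 1 and 2.47 times in replicate 2. The order of the libraries turned with 1 transcript length for both, which gave 1.93 in replicate 2, and in summed counts, whose ratios were 2.06 and 1.98. The alpha sums do not add the counts at loci of alpha tubulin pseudogenes, described below. These equalled 45.9% and 41.5% of the alpha counts in replicates 1 and 2, against 0.458% and 0.255% for the beta class. Reads of the alpha genes that were counted at these loci alone would, if added, lower the ratios. Reads counted at several alpha genes would instead have inflated the alpha sums. The sources used here do not give how such reads were counted, so the direction is not known. The origin of the reads was not tested.

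**Figure D3:**
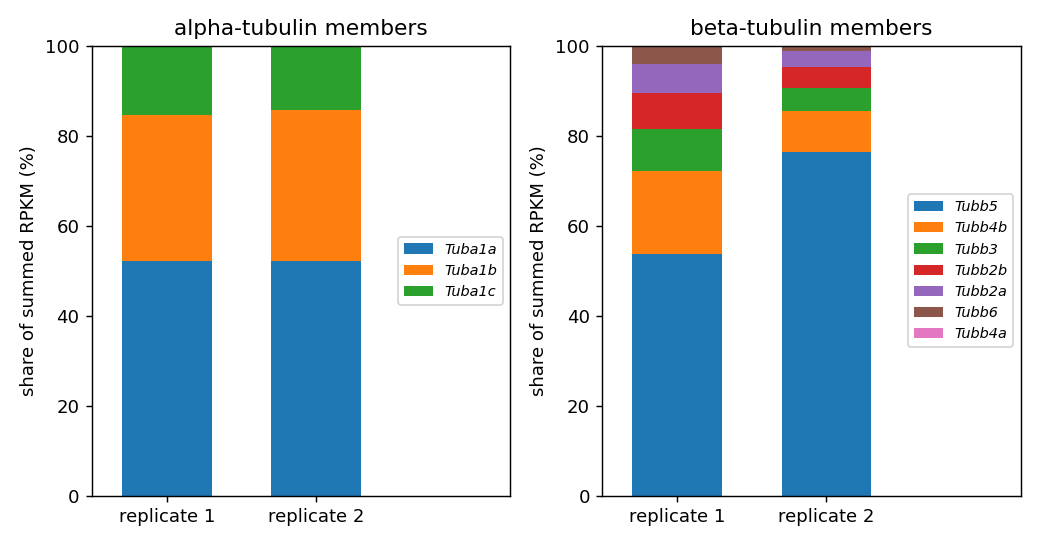
Stacked shares (percent) of the summed RPKM of the 3 alpha tubulins and of the 7 beta tubulins in each replicate. The alpha bars are nearly alike, and the Tubb5 segment of the beta bar grows from 53.8% to 76.4%.

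The libraries differed in depth, with 18318181 counted reads in replicate 1 and 117522171 in replicate 2. Across the 17090 loci of 1 RPKM or more in both, the median log2 ratio of replicate 2 to replicate 1 was -0.36 (SD 0.65), but across the 1289 single-gene protein-coding loci with a mean of 100 RPKM or more it was 0.14. Of the 10 tubulins, 8 were higher in replicate 2, against 21.7% of the loci of 1 RPKM or more in both. Of the 8 tubulins with a mean of 100 RPKM or more, 7 were higher, against 62.2% of single-gene protein-coding loci at that level. In RPKM only Tubb5 was 2-fold or more higher (3.14% of the 17090 loci) and none was 2-fold or more lower (11.8% of the 17090 loci), with Tubb6 at 1.98-fold lower just inside that limit. Both calls turned in CPM, the counts scaled to their sum in each library: the log2 ratio of Tubb5 was then 0.92, under 2-fold, and that of Tubb6 -1.13, over 2-fold lower.

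The log2 ratio of replicate 2 to replicate 1 was 1.52 for Tubb5, 0.79 for Tuba1b, 0.74 for Tuba1a and 0.63 for Tuba1c. It was 0.24 for Tubb2b, 0.17 for Tubb3, 0.16 for Tubb2a, 0.27 for Tubb4a and -0.96 for Tubb6. Tubb5, Tubb6 and the 3 alpha tubulins thus differed more between the libraries than Tubb2a, Tubb2b and Tubb3 did. The SD of this ratio was 0.51 across the 1289 single-gene protein-coding loci with a mean of 100 RPKM or more. The sign for Tubb4b turned positive (0.46) when replicates were rescaled to the same median, and those for Tubb2a (-0.02) and Tubb3 (-0.0036) turned negative in CPM. The primitive red cell genes Hbb-y (1746 and 6474 RPKM) and Hba-x (1284 and 3219) were also higher in replicate 2, whereas Alas2 (131 and 60.3) was lower. Fewer cells of a type and less RNA per cell cannot be told apart in whole embryos, and the part of cell composition in these ratios was not tested.

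The length behind RPKM was not the same in both libraries for every isotype. Reads per RPKM had a ratio of 5.68 between libraries at single-transcript loci, all of which were within 1% of it. Of 7878 well-counted loci with several transcripts, 23.2% were. Of the 10 tubulins, 8 were, but for those with a single transcript this was fixed in advance. Tuba1a, Tuba1b, Tubb4b and Tubb5 had several transcripts, and of these Tuba1b and Tubb4b were within 1%. Tubb5, with 4 transcripts at its locus, had a ratio of 4.23, so the length used in replicate 2 was 74.4% of that in replicate 1. For Tuba1a it was 106%. With the length of replicate 1 used for both, Tubb5 stood at 1778 RPKM in replicate 2, a 2.14-fold difference between libraries in place of 2.88-fold, and its share of the beta sum was 70.7%. The order of the 10 genes in replicate 2 and all 36 pair calls were as before.

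**Figure D4:**
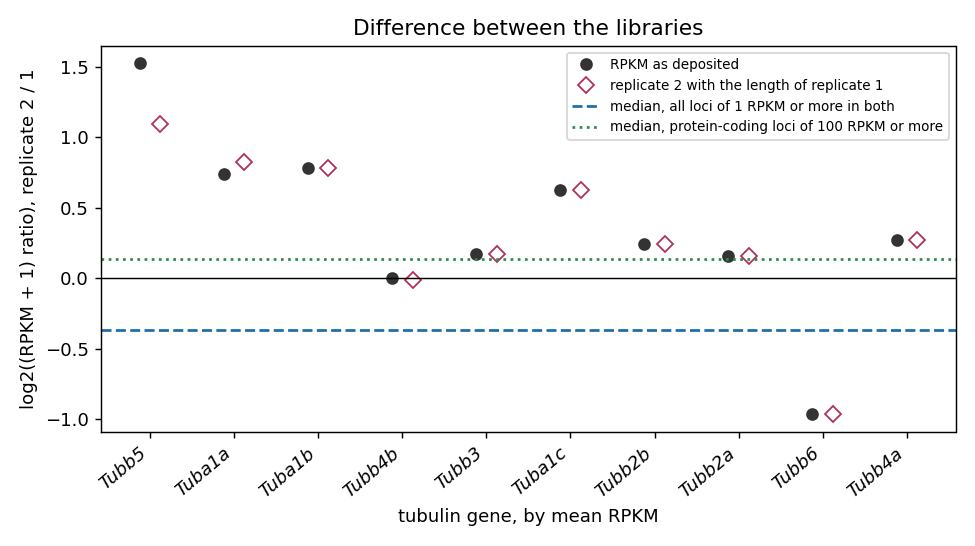
log2((RPKM + 1) ratio) of replicate 2 to replicate 1 for each tubulin gene, as deposited (circles) and with the length of replicate 1 used for both (diamonds). Tubb5 moves from 1.52 to 1.097, the other genes move little, and the dashed and dotted lines give the medians of all loci (-0.36) and of protein-coding loci of 100 RPKM or more (0.14).

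How far reads could be told apart between isotypes was described from transcript sequence. For each gene, every 50-base window of its coding transcript was looked up in the transcripts of all other annotated genes. For Tubb3 and Tubb6 no window was shared, and for Tubb5 and Tubb4a 0.115% and 0.184% were. Nearly all of the Tubb5 transcript thus had no exact match of this length in another annotated gene. Windows that matched with a mismatch were not counted as shared. By contrast 72.9% of the windows of Tuba1a, 73.8% of Tuba1b and 61.0% of Tuba1c were shared, mostly within the coding part (90.4%, 95.6% and 90.6% of its windows). Tubb2a and Tubb2b shared 49.6% and 39.3% of theirs, mostly with each other, and Tubb4b shared 50.9%, mostly with the pseudogene Tubb4b-ps1. The sequencing read length is not given in the sources used here, and with windows of 75 bases the shares were still 68.2% for Tuba1a and 37.8% for Tubb4b.

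**Figure D5:**
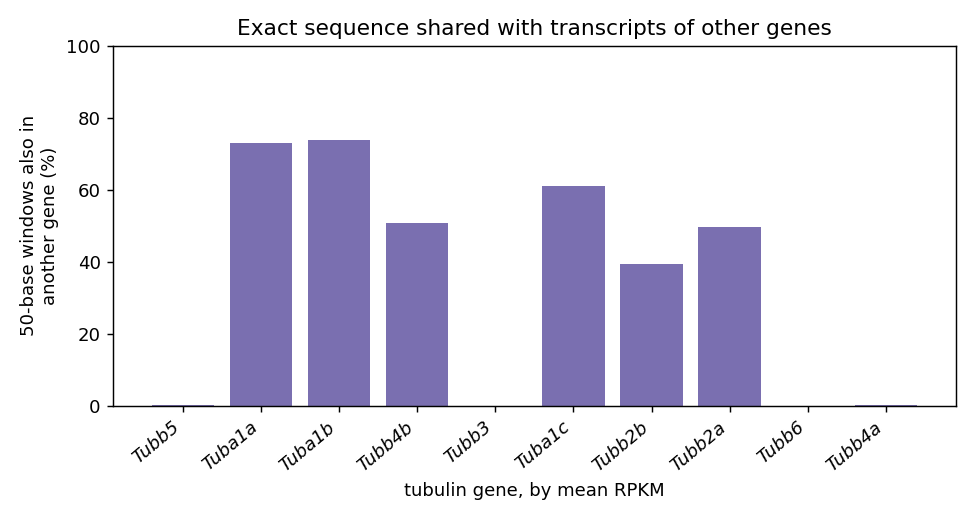
Percent of the 50-base windows of each tubulin transcript that also occur in a transcript of another annotated gene. The 3 alpha tubulins (61.0% to 73.8%), Tubb4b, Tubb2a and Tubb2b are high, and Tubb5, Tubb3, Tubb6 and Tubb4a are at or near 0.

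Many reads were also counted at processed pseudogenes of alpha tubulin. Of 8 pseudogenes that shared at least 5% of an alpha tubulin's windows, 6 had a locus in the deposited values. Gm17383 was listed at 175 and 348 RPKM, Gm14150 at 233 and 343, Gm6682 at 128 and 158, and Gm3756 at 124 and 163. Gm5620 (68.3 and 98.5) and Gm15599 (9.22 and 4.31) were lower. The 7233 and 63733 reads counted at these loci equalled 45.9% and 41.5% of the reads counted for the 3 alpha tubulins. The RPKM of 5 of the 6 was higher in replicate 2. That held for 21.7% of the loci of 1 RPKM or more in both libraries. Among single-gene protein-coding loci with a mean of 100 RPKM or more it held for 62.2%. The sources used here do not give how reads that match several loci were counted. The division of alpha tubulin reads among Tuba1a, Tuba1b, Tuba1c and these loci is therefore uncertain, and so is that between Tubb2a and Tubb2b. The level of Tubb4b, which shares windows with its pseudogenes, is uncertain in the same way. The comparisons of alpha with beta tubulin levels, Tubb5 over Tuba1a among them, carry this uncertainty too. For the beta class 1 of 4 such pseudogenes had a measured locus, Gm16165 (13.7 and 12.5 RPKM). Tubb4b-ps1, Tubb4b-ps2 and Tubb2a-ps2 had none.

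Of 10 other genes of the tubulin superfamily, 6 reached 1 RPKM in both libraries, and the list median was 6.62 and 5.02 RPKM. Highest in the mean of both libraries were Tubg1, the gamma tubulin that nucleates microtubules (32.1 and 37.2), Tuba4a (22.6 and 11.0) and the epsilon tubulin of centrioles, Tube1 (15.2 and 8.62). Tuba3b, an alpha tubulin of testis, was lowest, with 0 reads in replicate 1 and 4 in replicate 2 (0.0305 RPKM). A count of 0 in replicate 1 allowed up to 0.164 CPM, for counting error only. Tubb1, the beta tubulin of platelets and megakaryocytes, stood at 12.3 and 8.78 RPKM, and 5 of the 6 markers of that lineage reached the minimum, led by Pf4 (27.9 and 26.6).

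Tubulin folds on the chaperonin CCT after delivery by prefoldin, and cofactors then assemble the heterodimer. All 21 loci of this list reached 1 RPKM in both libraries. Their median was 141 and 166 RPKM. Here and in the lists below, highest and lowest are by the mean of both libraries. The chaperonin subunits Cct5 (773 and 1176), Tcp1 (633 and 1214, in a locus joined with Mrpl18) and Cct6a (269.8 and 461) were highest, and Tbcel, a relative of the cofactors, was lowest (24.6 and 15.0). For mRNA autoregulation, Ttc5 stood at 28.6 and 24.4 RPKM, Scaper at 25.2 and 28.2 and Cnot11 at 52.9 and 43.3. Scaper and Cnot11 act with Ttc5 in the decay of tubulin mRNA.

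Enzymes that modify tubulin reached the minimum at 19 of 22 loci, with a median of 24.2 and 19.7 RPKM. The glutamylase Ttll4 was highest (202 and 139), followed by the joined locus of the alpha tubulin acetylase Atat1 (140.3 and 82.3) and by Svbp, the partner of the vasohibin detyrosinases (87.1 and 70.6). Agbl1, a deglutamylase, had the lowest mean (0.343 and 0.119), although Ttll6 was lower in replicate 1 (0.0295 and 0.978). The 7 severing genes all passed, with Fignl1 (149 and 136), the katanin subunit Katna1 (104 and 109.7, joined) and Katnal1 (54.6 and 34.6) highest and Katnal2 lowest (14.9 and 19.5).

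Microtubule-associated proteins passed at all 23 loci, with a median of 68.8 and 44.9 RPKM. The tubulin-sequestering Stmn1 (356 and 476, joined), the axonal Map1b (291 and 305) and the microtubule polymerase Ckap5 (235 and 324, joined) were highest, and the epithelial Map7 was lowest (5.71 and 3.16). The 10 loci of the gamma-tubulin ring complex, the nucleating template of microtubules, also all passed. Its 3 highest loci were joined ones, Tubgcp4 (511 and 413, with Trp53bp1), Tubgcp6 (115 and 77.2) and Tubgcp3 (90.1 and 69.7), so these values cannot be given to 1 gene. Tubg2, the second gamma tubulin, was lowest (1.77 and 1.42).

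Markers of the cell types known for each isotype were measured beside them. All 7 neuron loci reached 1 RPKM in both replicates (median 99.8 and 84.2 RPKM), and the joined locus of Nefm and Nefl (343 and 373), Gap43 (256 and 249) and Stmn2 (99.8 and 142) had the highest means, with Elavl3 lowest (14.6 and 9.01). All 5 neural progenitor loci passed, led by Nes (284 and 318), as did all 5 primitive erythroid loci, all 4 cardiac muscle loci and all 4 mesenchyme loci. Of the 5 multiciliated cell genes 2 passed, with Foxj1 at 2.75 and 1.23 RPKM, while Tubb4b stood at 283 in both libraries. Of the 4 mature oligodendrocyte genes 1 passed, and its values are not reported here. The others, Mog (0.541 and 0.367), Mag (0.251 and 0.0413) and Mobp (0.112 and 0.111), stayed under 1 RPKM beside the low Tubb4a.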

How the data were processed

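Reads were aligned with TopHat to mm9, per the submitters' processing notes, with no version. The sources used here do not give the read counter, filters or use of strand, so sense and antisense reads cannot be told apart. The deposited values of each file were RPKM, computed by the authors, and raw whole-number counts per locus, per the file headers. Rows with the same gene identifiers (34676 rows) were summed to 34624 loci, of which 2473 joined several genes. Symbols were matched by identifier (86.6% of 37681) and gene types and sequences came from GENCODE M21 on GRCm38. Members, lists and pairs were chosen with earlier results of these data known. Named genes were the members, fixed pairs and neighbours in level, and the 3 highest and the lowest gene of each list; marker genes, Tubb1 and the pseudogenes were named after their values were seen. With 1 group, counts were used for depth, Poisson intervals and CPM, and no count test was possible. Protein identity was planned, but identity of coding sequence was used in its place (global alignment, Biopython 1.88). The coding ends of some members and 1 marker gene are not reported here. The pair rule was tested on simulated data with independent errors and a replicate SD set below that of these pairs. Differences of a size near the limits, reads shared between genes and changes of length between libraries were not simulated. The test therefore does not cover them. Analyses used Python 3.11.15, pandas 2.3.3 and scipy 1.17.1.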

Additional observations from a re-analysis of the deposited data

How the results depend on the processing

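No paired analysis was possible because the series has 1 group. All 10 isotypes were detected with a minimum of 0.3 RPKM and in each replicate alone; with a minimum of 5 RPKM Tubb4a was lost, which left 9. Of 45 pairs, 36 were beyond the spread with other pseudocounts, 500 nearest loci or the same length in both replicates (chosen after seeing the data), 34 without replicate 2 (Tuba1a with Tubb5 and Tuba1b with Tubb3 lost), 35 without replicate 1 (Tuba1a with Tubb4b gained, Tubb4b with Tuba1c and with Tubb3 lost), 30 with loci of any type and 29 without the protein-coding filter. With loci of any type the pairs no longer beyond it were Tubb5 with Tuba1a, Tuba1b with Tuba1c and Tubb3, and Tubb4b with Tuba1c, Tubb2b and Tubb3; the cause was not tested. With 1 replicate left out, Tubb3 over Tuba1c ranged from -0.14 to 0.32, Tuba1b over Tubb4b from -0.21 to 0.58 and Tuba1c over Tubb2b from -0.083 to 0.30, so the sign of each rests on 1 library. The Tuba1a share of alpha tubulin was 52.2% in RPKM, 47.9% in counts not divided by length, and 53.0% with the same length in both replicates. The median log2 ratio of the 10 genes was 0.26, and 0.69 with replicates rescaled to the same median, which moved the median of all loci from -0.36 to 0.06. It was 0.098 in CPM. The sign turned for Tubb4b (0.46) on rescaling and for Tubb2a (-0.018) and Tubb3 (-0.0036) in CPM. Replicate 1 has the lower depth, and its 98 reads limit Tubb4a most.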
